A study of Mus musculus with 2 samples.

Results

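Low-cycling tumor cells without state markers are barcodes of MC38 tumors that were chosen by their own counts of unique molecular identifiers (UMIs, each standing for 1 captured transcript). A barcode counted as tumor-like when it held at least 8000 UMIs, at most 20% of UMIs from mitochondrial mt- genes, under 0.03% from Ptprc, Tyrobp, Fcer1g and Cd3e together and under 0.1% from Col1a2 and Dcn together. The members were selected on the UMI share of the cycling genes Rrm2, Pclaf, Cenpf, Ccnb1 and Top2a, which had to lie at or below the median of all tumor-like barcodes. They were also selected on at most 1 UMI for each of 3 sums of tumor state genes, which were Chrm3 with Rbfox1 and Brinp3, Aspn with Enpp2 and Ogn, and Krt14 with Areg. The rule found 1795 members among 7614 tumor-like barcodes and 29003 deposited barcodes. Of these, 1032 came from the 14386 barcodes of untreated tumors and 763 from the 14617 barcodes of MSA-2 tumors.

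MC38 is a mouse colon carcinoma line, and MSA-2 is a small molecule that activates STING. Subcutaneous MC38 tumors in C57BL/6 mice were injected with MSA-2 or with saline that held 10% DMSO, 3 times at intervals of 3 days. The methods give mice of both sexes for the MC38 models, aged 6 to 8 weeks, and place collection on day 7. Tumors of 3 mice were pooled into 1 single-cell RNA library per condition, made with 10x Chromium 3′ chemistry. The methods call all retained cells immune cells, whereas the rule takes barcodes with few UMIs of 4 immune genes. The control library is labelled untreated although its tumors were given vehicle, and the spread between tumors cannot be known from 1 pool a condition.

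STING sits on the endoplasmic reticulum and is switched on by cyclic dinucleotides that cGAS makes from cytosolic DNA. It relays through the kinase TBK1 to the transcription factors IRF3 and NF-kB, which drive type I interferon and inflammatory cytokines. Interferon then acts on neighbouring cells through its receptor and the JAK kinases, and turns on antiviral effectors, interferon-inducible GTPases and MHC class I presentation.

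The untreated library held 198135335 UMIs over all barcodes and the MSA-2 library 204387165. Summed over members these were 20811409 and 15720387 UMIs. The median member held 19185.5 UMIs and 4438.5 genes in the untreated library, and 18159 UMIs and 4379 genes in the MSA-2 library, so depth was alike in both. The median share of mt- UMIs was 2.83% and 3.01%. Between the libraries 53 barcode sequences were shared, 1 of them a member. Every interval below is an exact 95% interval, covers counting error only, and says nothing of the spread between tumors. Levels are counts per 1000000 (CPM) of the UMIs summed over the members of a library.

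Members made up 21.6% (20.4 to 22.8%, Clopper-Pearson) of the tumor-like barcodes of the untreated library and 27.0% (25.4 to 28.7%) of those of the MSA-2 library. Several of the values that chose them differed between the libraries. At or below the cycling median lay 2674 of 4786 untreated and 1133 of 2828 MSA-2 tumor-like barcodes, which is 55.9% and 40.1%. Of those, 1343 untreated barcodes (50.2%) and 162 MSA-2 barcodes (14.3%) held 2 or more UMIs of the Aspn sum. For the Krt14 sum the counts were 534 and 186, and for the Chrm3 sum 11 and 67. Of the untreated barcodes at or below the cycling median that failed a state sum, most therefore failed the Aspn sum. A barcode that failed several sums is counted under each.

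Just inside the cycling limit the highest share was 0.0319%, and the lowest share outside it was also 0.0319%. Among all tumor-like barcodes 723 had 0 UMIs of the 5 cycling genes, and 219 untreated and 108 MSA-2 members were among them. Exactly 1 UMI of the Aspn sum was held by 419 untreated and 150 MSA-2 members, and exactly 2 UMIs, just outside, by 312 and 59 barcodes. For the Krt14 sum 185 and 106 members held 1 UMI and 153 and 64 barcodes held 2. For the Chrm3 sum 19 and 94 members held 1 UMI and 4 and 23 barcodes held 2.

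The limit on Col1a2 and Dcn acted unequally as well. It alone kept out 1047 of 7381 untreated barcodes with at least 8000 UMIs (14.2%) and 4005 of 7547 MSA-2 barcodes (53.1%). Most of these, 928 and 3751, held under 1% of the pair. Their summed level of 4 Y-linked genes was 9.35 and 9.16 CPM, close to the 8.65 and 7.32 CPM of the members and far from the 142 and 94.6 CPM of fibroblast reference barcodes, which held at least 1% of the pair. The limit thus kept out more barcodes with low Y-linked levels in the MSA-2 library than in the untreated one. With the limit at 1% there would be 1068 untreated and 1554 MSA-2 members.

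The label of tumor cell was checked against 10 markers, of which 3 passed the filter on low counts and 2 had 0 UMIs in both libraries. Gng11, Ccn1 and Anxa1, the 3 that passed, were present in the members of both libraries. Gng11, a G protein subunit, stood at 1434 CPM in untreated members and 1061 CPM in those of MSA-2 tumors, Ccn1, a matrix-associated growth factor, at 656 and 345 CPM, and Anxa1, an annexin, at 996 and 977 CPM. Epithelial markers were close to absent. Of 21 epithelial genes 1 passed the filter on low counts, Tjp1 (30.6 and 37.1 CPM), and 7 had 0 UMIs in both libraries. Krt8 had 1 and 6 UMIs over all members, Krt18 0 and 0, Krt19 0 and 8, Epcam 3 and 0 and Cdh1 7 and 2. The most abundant genes other than mitochondrial and ribosomal ones were S100a6, Tpt1, Eef1a1, Lgals1, Malat1, Actb, Fth1, Gapdh, S100a4 and Vim, and Vim, the mesenchymal intermediate filament, stood at 3945 and 3012 CPM. The members are called tumor cells by the rule, and the other 7 of the 10 markers, all keratins, claudins or epithelial adhesion genes, were close to absent. The Y-linked level of immune barcodes was 202 and 142 CPM, and the methods do not give the sex of the pooled mice.

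A few barcodes of other cell types passed the rule. In 29 untreated members (2.81%) and 30 MSA-2 members (3.93%) the markers of another type took 0.1% or more of all UMIs. Endothelial markers did so in 18 and 28 members, adipocyte markers, mainly Fabp4, in 21 and 21, plasma cell markers in 2 and 0, T cell markers in 1 and 0 and pericyte markers in 0 and 1. The immunoglobulin genes Igkc and Ighg2c had 97.9% and 97.7% of their untreated UMIs in 2 members. Cfd, an adipocyte gene, and Acta2, a smooth muscle gene, had 98.9% and 81.6% of their MSA-2 UMIs in 2 members. Values without these 59 barcodes are therefore given beside several results below.

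The comparison asks how the transcripts of these low-cycling tumor cells differed between MSA-2 and untreated tumors. After a filter at a mean of 5 CPM, 9604 of 32285 features were compared, and ratios are log2 of MSA-2 over untreated with 1 CPM added, while their intervals are of the counts without it. With 1 library a condition no test was made, and a gene is said to have risen or fallen when its ratio passed 2-fold. By that measure 254 genes rose (2.64%) and 152 fell (1.58%). The median ratio of all compared genes was -0.03, with 80% of them between -0.52 and 0.50. Without the 59 barcodes the counts were 229 and 161. Ratios were ranked among genes at a mean of at least 25 CPM outside the rule. The 15 highest of these included neutrophil, cytokine and antiviral genes, and the 15 lowest included immunoglobulin, MHC class II and macrophage genes.

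**Figure D1:**
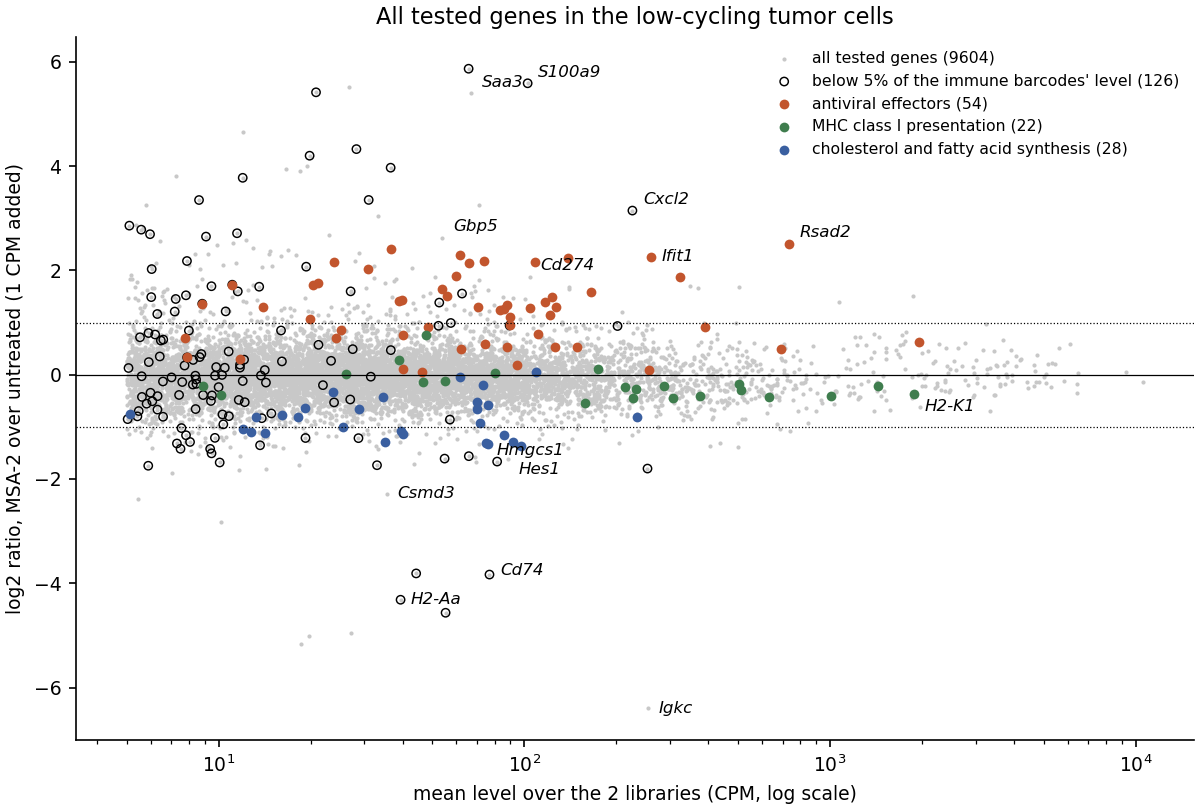
Log2 ratio of MSA-2 over untreated (vertical axis, 1 CPM added) against the mean level in CPM (horizontal axis, log scale) for the 9604 compared genes in the members, with antiviral effectors in orange, MHC class I genes in green, cholesterol and fatty acid genes in blue, and open circles for the 126 genes below 5% of their level in immune barcodes. Antiviral effectors lie above 0, most MHC class I genes lie just below it, cholesterol genes lie lower, and dotted lines mark 2-fold.

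Some of the genes that rose or fell are markers of immune cells. Immune barcodes, at least 0.2% of whose UMIs came from the 4 immune genes of the rule, served as a reference, 5090 of them untreated and 4536 from MSA-2 tumors. The 10 macrophage and MHC class II genes, C1qa, C1qb, C1qc, Csf1r, Ms4a7, Lyz2, H2-Aa, H2-Ab1, H2-Eb1 and Cd74, together had 785 CPM in untreated members, 2.18% of their 35991 CPM in immune barcodes. In the MSA-2 library they had 139 CPM, 1.63% of 8505 CPM. The single genes lay between 1.84 and 2.45% without agonist and between 1.16 and 2.12% with it. The 8 neutrophil genes together had 449 CPM in MSA-2 members, 1.37% of their 32847 CPM in immune barcodes. In the untreated library the neutrophil genes had 10.8 CPM, 6.87% of 157 CPM, with single genes from 0 to 93.4%. Macrophage and neutrophil genes thus stood at a like low share of their immune level in the MSA-2 library alone. Free RNA in droplets and RNA made by the members cannot be told apart, since free RNA was not measured.

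A level of 5% of that in immune barcodes, chosen after these values were seen, was used to set such genes apart. Below it, in the library where the member level was higher, lay 32 of the 254 genes that rose, 22 of the 152 that fell and 126 of all 9604. Of the 15 genes with the highest ratios, S100a8 (1.25 to 130.3 CPM, at 1.39% of the immune level), S100a9 (3.22 to 202 CPM, 1.29%), G0s2 (1.78 to 54.7 CPM, 1.49%), Slpi (3.51 to 69.6 CPM, 1.84%, or 1.43 to 69.3 CPM without the barcodes of other cell types), Acod1 (4.71 to 57.3 CPM, 1.88%) and Cxcl2 (45.0 to 407 CPM, 1.48%) were of this kind. Lcn2, an iron-siderophore binding protein, went from 0.192 to 53.4 CPM and stood at 5.05%, at the edge of that level, with an MSA-2 level of 127 CPM when the Col1a2 and Dcn limit was 1%. Of the 15 with the lowest ratios, H2-Eb1 (107 to 3.56 CPM), H2-Aa (75.9 to 2.86), H2-Ab1 (83.6 to 5.03), Cd74 (145 to 9.22), Apoe (394 to 112), C1qa (124 to 38.5), C1qc (51.3 to 14.7) and Lyz2 (83.2 to 26.6) stood at 1.90 to 2.45% of their untreated immune level. The same genes had ratios of the same sign in the immune barcodes themselves, at 9.84 for S100a9, 3.73 for Cxcl2, -3.86 for H2-Aa and -1.44 for Apoe. Their part in the other results was not tested, but it is given below wherever a named gene lies under this level.

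Free RNA, if present, would also count in any share of cells with a UMI. After each member had been thinned at random to 8000 UMIs, C1qa, the complement gene of macrophages, had a UMI in 62.8% of untreated and 29.1% of MSA-2 members. H2-Aa had one in 45.3% and 2.23%, and S100a9, a neutrophil gene, in 0.291% and 76.7%. Cxcl2, a neutrophil chemokine that stood at 1.48% of its immune level in MSA-2 members, had one in 26.8% and 92.1%. These shares, from genes at a low percentage of their immune level and at the same depth, are given for comparison with those that follow. For a share at or below them, the source of the UMIs was not tested.

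**Figure D2:**
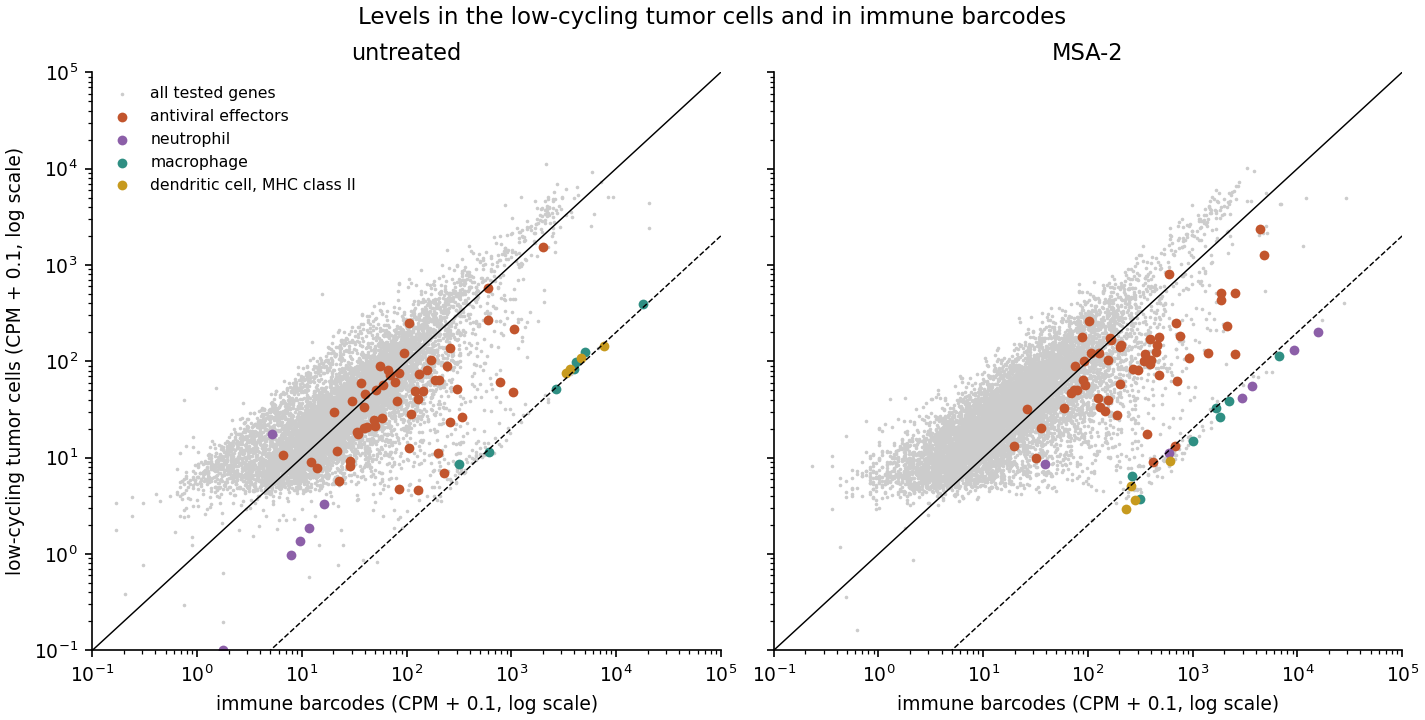
Level of each compared gene in the members (vertical axis, CPM plus 0.1, log scale) against its level in immune barcodes (horizontal axis, CPM plus 0.1, log scale) in the untreated library (left) and the MSA-2 library (right), with colours for 4 gene lists, a solid line at equal levels and a dashed line at 2% of the immune level. Macrophage and MHC class II genes lie along the dashed line in both libraries, neutrophil genes lie near it in the MSA-2 library, and the antiviral effectors lie mostly between the lines.

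Antiviral effectors of the interferon response rose as a group. Of 54 measured genes 33 rose, none fell and 54 had a ratio above 0, with a median of 1.28 beside -0.03 for all genes. Their summed level was 4944 CPM in untreated members and 10503 CPM in those of MSA-2 tumors. Rsad2 (viperin), which makes a chain-terminating nucleotide, stood at 219 CPM in untreated members and 1254 CPM in those of MSA-2 tumors, a log2 ratio of 2.51 (2.47 to 2.57). Ifit1, which binds viral RNA that lacks a host cap, stood at 88.8 and 431 CPM, a ratio of 2.26. Its relatives Ifit2 and Ifit3 went from 26.0 to 121 and from 138 to 507 CPM. All of these were several times higher in the MSA-2 library, and Rsad2 was the most abundant effector past 2-fold in MSA-2 members.

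The oligoadenylate synthetase genes of the list rose. Oas1a, Oas2 and Oas3, which make the messenger that activates RNase L, went from 20.9 to 56.9, from 11.5 to 49.9 and from 9.08 to 33.3 CPM. The family members Oasl1 and Oasl2 went from 47.9 to 231 and from 81.9 to 248 CPM. Other genes past 2-fold were Cmpk2, a mitochondrial nucleotide kinase (20.1 to 103 CPM), Ifi44 (39.0 to 178 CPM) and the Schlafen gene Slfn2 (23.6 to 108 CPM). Ifi204 and Ifi205, DNA-binding proteins of the PYHIN family, were among the 15 highest ratios at a mean of at least 25 CPM, at 2.40 and 2.33. Paralogs such as these, the Oas1 genes and Ifit3 with Ifit3b are so alike that their reads may not be told apart, so levels of single members need care.

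Several effectors that were abundant in untreated members had smaller ratios. Isg15, a ubiquitin-like modifier, stood at 271 and 509 CPM, a ratio of 0.91. It passed 2-fold at 1.03 with at least 12000 UMIs and at 1.04 with the Col1a2 and Dcn limit at 1%. Its ratio was 1.15 in members of at least 25000 UMIs. In those of 8000 to 15000 UMIs it was 0.64, and after thinning 0.78. Bst2, which tethers budding virus, stood at 575 and 809 CPM (0.49) and Ifitm3, which blocks viral fusion, at 1541 and 2377 CPM (0.62). Ifi27, Sp110 and Ube2l6, the enzyme that carries Isg15, had ratios of 0.10, 0.10 and 0.05. Of the 54 genes 4 lay under 5% of their immune level, with 2 (Slfn5 and Ifitm1) among the 33 that rose, and without these 4 the median was again 1.28.

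In single cells most MSA-2 members lay above the untreated median. The summed effector level had a median of 4579 CPM over untreated and 9328 CPM over MSA-2 members, and 92.1% of MSA-2 members lay above the former. The upper range differed as well, since 50.3% exceeded the untreated 90th percentile of 9291 CPM. Rsad2 had a UMI in 50.2% of untreated and 92.3% of MSA-2 members after thinning, and Ifit1 in 33.6% and 81.0%. The untreated shares lie below that of C1qa and the MSA-2 share of Ifit1 below that of Cxcl2, with Rsad2 level with Cxcl2. The source of these UMIs was not tested in either library. Relative to immune barcodes the untreated level was 20.8% for Rsad2 and 36.5% for Ifit1. C1qa and Cxcl2 stood at a far lower percentage of their immune level, so their shares are not a like measure for these 2 genes. With the immune profile taken off, as described at the end, Rsad2 stood at 200 and 1195 CPM and Ifit1 at 85.4 and 407 CPM in untreated and MSA-2 members.

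**Figure D3:**
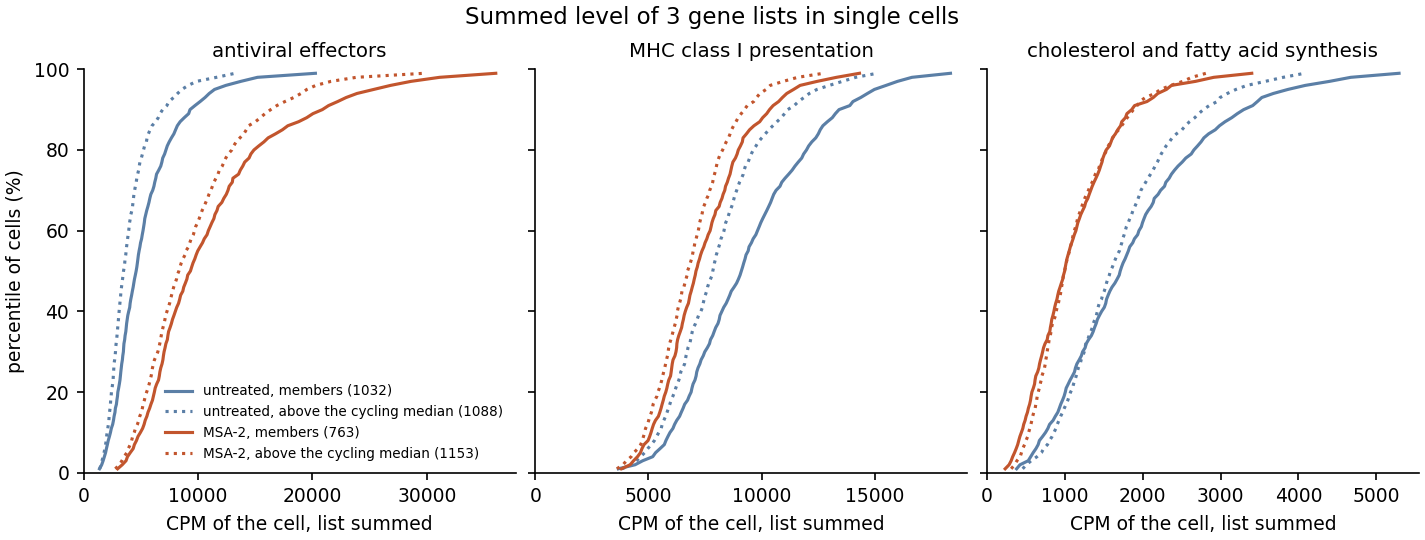
Percentile of cells (vertical axis, %) against the summed level of a gene list in the cell (horizontal axis, CPM) for members (solid) and for barcodes above the cycling median without state markers (dotted), in untreated (blue) and MSA-2 (orange) libraries. The MSA-2 curve lies to the right for antiviral effectors (medians of 4579 and 9328 CPM in members) and to the left for MHC class I (9105 and 7100 CPM) and for cholesterol and fatty acid synthesis (1711 and 998 CPM).

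Sensors and relays of the interferon response went the same way with 1 exception. Of 14 measured genes 5 rose, 1 fell and the median was 0.90. Those that rose were Usp18, which removes Isg15 and damps the receptor (30.9 to 112 CPM), the RNA sensor Ifih1 (67.4 to 213), the interferon regulator Irf7 (48.5 to 136), the RNA-activated kinase Eif2ak2 (40.7 to 92.4) and the regulator Dhx58 (15.2 to 31.5). The gene that fell, Irf8, is a factor of myeloid cells and lay under 5% of its immune level (14.5 to 4.45 CPM). Stat2 and Irf9, factors that carry the signal of the type I receptor to the nucleus, had ratios of 0.96 and 0.84, short of 2-fold. Irf1, which interferon gamma induces strongly, had a ratio of 0.28.

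Interferon-inducible GTPases, which attack the vacuoles of intracellular pathogens, showed a smaller shift. Of 16 measured genes 3 rose, 15 had a ratio above 0 and the median was 0.49. Gbp5 stood apart, at 14.3 CPM in untreated members and 93.6 CPM in those of MSA-2 tumors (ratio 2.63, 2.53 to 2.89) at 17.7% of its immune level in the latter, and had a UMI in 9.79% and 40.1% of thinned members. The other 2 that rose, Gvin1 and Gm4070, were scarce, at 2.21 to 7.89 and 2.83 to 8.27 CPM. Gbp2, the most abundant, stood at 403 and 401 CPM, and Iigp1 at 189.7 and 272 CPM. So the family did not move as 1 block, with Gbp5 well past 2-fold and Gbp2 level.

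Most MHC class I genes had ratios a little below 0. None of 22 measured genes passed 2-fold, 17 had a ratio below 0 and the median was -0.23. H2-K1 and H2-D1, the classical class I chains, stood at 2124 and 1645 and at 1147 and 867 CPM, with ratios of -0.37 (-0.39 to -0.35) and -0.40. Their light chain B2m stood at 1546 and 1336 CPM, but at 1279 and 1283 CPM in members of at least 25000 UMIs, against a ratio of -0.45 in members of 8000 to 15000 UMIs. The immunoproteasome genes Psmb8, Psmb9 and Psmb10, whose products cut peptides for class I, had ratios of -0.43, -0.54 and -0.45. Above 0 lay Nlrc5, the class I transactivator, at 35.3 and 60.2 CPM (0.76), while the peptide transporter genes Tap1 and Tap2 were at 0.04 and -0.13. The sum of the list had a median of 9105 CPM over untreated and 7100 CPM over MSA-2 members, and 81.5% of MSA-2 members lay below the untreated median.

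Promoters were read for the genes that moved together, to show the letters that interferon factors are known to bind. The RefSeq promoter table (GRCm38.p6, 250 bases before to 50 after a start site) matched 173 of the 254 genes that rose and 118 of the 152 that fell. The core of the interferon-stimulated response element, GAAA and again GAAA parted by 2 bases of any kind, searched on both strands, was in 34 of the 173 (19.7%, 14.0 to 26.4%), in 4 of the 118 (3.39%) and in 305 of 7646 compared genes with a promoter (3.99%). It was in 19 of 44 antiviral effectors, 8 of 9 GTPases, 5 of 19 MHC class I genes, 2 of 31 NF-kB and chemokine genes (6.45%, 0.791 to 21.4%) and 0 of 19 cholesterol and fatty acid genes. Over all 27025 genes of the table the share was 3.99%. The gamma-activated site TTCNNNGAA was in 21 of the 173 (12.1%, 7.67 to 17.96%), in 9 of the 118 (7.63%), in 8.07% of compared genes and in 9.55% of all genes of the table, both of which lie within the interval of the genes that rose. By list it was in 5 of 9 GTPases (55.6%), 7 of 44 antiviral effectors (15.9%), 2 of 19 MHC class I genes, 3 of 31 NF-kB and chemokine genes (9.68%) and 0 of 19 cholesterol and fatty acid genes. Among the 15 genes with the highest ratios at a mean of at least 25 CPM, the first 3 that held the first motif are shown with the match in capitals. In Saa3 it begins at base -125 from the start site (chr7:46715627-46715926, minus strand). In Gbp5 it lies on the opposite strand from base -165 (chr3:142496684-142496983, plus strand), and in Rsad2 on the opposite strand from base -120 (chr12:26456403-26456702, minus strand).
Saa3: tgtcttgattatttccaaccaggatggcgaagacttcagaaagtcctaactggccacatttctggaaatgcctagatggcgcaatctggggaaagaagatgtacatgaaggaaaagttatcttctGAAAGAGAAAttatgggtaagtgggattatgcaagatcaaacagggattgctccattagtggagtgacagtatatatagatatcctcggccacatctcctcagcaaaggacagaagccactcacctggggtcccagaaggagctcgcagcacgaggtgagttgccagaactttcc
Gbp5: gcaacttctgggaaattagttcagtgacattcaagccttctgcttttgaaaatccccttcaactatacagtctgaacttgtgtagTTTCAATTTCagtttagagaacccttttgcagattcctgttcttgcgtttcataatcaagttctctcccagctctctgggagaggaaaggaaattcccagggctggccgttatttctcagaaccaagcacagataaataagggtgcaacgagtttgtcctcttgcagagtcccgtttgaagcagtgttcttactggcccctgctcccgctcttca
Rsad2: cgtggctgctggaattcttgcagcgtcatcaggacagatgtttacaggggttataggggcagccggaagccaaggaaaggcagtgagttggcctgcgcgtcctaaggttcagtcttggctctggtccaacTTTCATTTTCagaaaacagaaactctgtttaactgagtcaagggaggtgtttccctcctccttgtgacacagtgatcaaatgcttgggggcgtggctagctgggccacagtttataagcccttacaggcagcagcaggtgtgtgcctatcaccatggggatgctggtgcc
A match describes these letters in this window and does not show that a factor binds there.

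The relay upstream of interferon was present but close to level. Of 11 measured genes of the cGAS-STING relay none passed 2-fold, and the median was 0.13, or -0.13 with state markers at 0 UMIs and 0.02 without the barcodes of other cell types. Cgas, the DNA sensor, stood at 11.2 and 23.4 CPM, just short of 2-fold. STING itself, listed as Tmem173, was scarce, at 6.20 and 7.32 CPM, or 12.4% and 31.5% of its level in immune barcodes. The kinase gene Tbk1 was at 35.3 and 43.8 CPM and the factor Irf3 at 17.5 and 14.1 CPM.

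Interferon genes were close to absent. Of 21 ligands 12 had 0 UMIs in both libraries, which allows up to 3 UMIs for each. Ifnb1 alone passed the filter, with 37 UMIs (1.78 CPM) in untreated and 258 UMIs (16.4 CPM) in MSA-2 members. At 1.97% and 1.82% of its immune level it lay within the range of macrophage and MHC class II genes in both libraries, so its rise cannot be told apart from free RNA. The receptor genes Ifnar1 and Ifnar2 stood at 25.4 and 28.6 and at 85.6 and 93.1 CPM, and Ifngr1 and Ifngr2, for interferon gamma, at 71.4 and 54.8 and at 44.9 and 40.4 CPM. Of 10 measured receptor and kinase genes 1 rose, the kinase Jak2 (29.6 to 60.9 CPM), and the median was 0.13.

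NF-kB feedback genes, chemokines and cytokines rose in part. Of 41 measured genes 16 rose, 1 fell (Cxcl16, 14.0 to 5.47 CPM) and the median was 0.94. Under 5% of the immune level lay 7 of the 41, with 5 that rose and the 1 that fell among them, and without these 7 the median was 0.85. Besides Cxcl2, those that rose were Cxcl3, Ccl9, Il1rn and Tnf (5.96 to 15.1 CPM at 1.92%, with a ratio of 0.66 when 10 CPM were added and 0.82 in members of 8000 to 15000 UMIs). Il1b, at 38.2 and 76.8 CPM and 1.35%, was also under this level. These genes carry the name of the list but stand in level near the immune markers above.

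Other genes of the list lay above 5% of the immune level. Cxcl1, which draws neutrophils, was at 977 CPM in untreated members and 2765 CPM in those of MSA-2 tumors (log2 ratio between 1.48 and 1.53), 374% of its level in MSA-2 immune barcodes. Ccl5, which draws T cells, rose from 163 to 534 CPM at 10.9%, but its ratio was 0.88 in members of 8000 to 15000 UMIs and 2.30 in those of at least 25000, and its MSA-2 level was 1067 CPM with the Col1a2 and Dcn limit at 1%. Cxcl10, the interferon-induced ligand of CXCR3, was the most abundant of the list, at 2192 and 4283 CPM, a ratio of 0.97, and Ccl2, which draws monocytes, was at 1028 and 1768 CPM. Cxcl9, a further CXCR3 ligand that depends on interferon gamma, lay at 197 and 151 CPM. Neither ligand passed 2-fold, but both depended on the members taken. Cxcl9 had ratios of 0.38 with the Col1a2 and Dcn limit at 1% and 0.21 in members of at least 25000 UMIs. In members of 15000 to 25000 UMIs its ratio was -0.90. Cxcl10 passed 2-fold at 1.13 with at least 12000 UMIs, at 1.23 in members of 15000 to 25000 UMIs and at 1.12 in those above. Its ratio was 0.54 in members of 8000 to 15000 UMIs and 0.76 with the Col1a2 and Dcn limit at 1%.

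Cytokine genes that rose included Il6 (4.85 to 27.2 CPM), the granulocyte factor Csf3 (2.59 to 19.7), the alarmin Il33 (2.79 to 21.8), Il15, which sustains natural killer cells (23.8 to 69.4), and Lif (21.4 to 45.0). Saa3, an acute phase protein, went from 2.16 to 132 CPM at 10.3% of its immune level (699 CPM in MSA-2 members with the Col1a2 and Dcn limit at 1%), and had a UMI in 2.03% of untreated and 60.4% of MSA-2 members after thinning. Of the inhibitors of NF-kB, Tnfaip3 rose (31.7 to 105 CPM), and Nfkbia, at 1270.3 and 2167 CPM, did not pass 2-fold. Gm16685, an antisense transcript that overlaps Il7 on the other strand, rose from 14.4 to 117 CPM. Gm47080, a long intergenic transcript 6992 bases from Pcnx, rose from 6.44 to 59.99 CPM. Both transcripts stood at about 3 times their immune level, with 294% and 343% in the MSA-2 library.

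A list of checkpoint ligands, tryptophan and adenosine enzymes and NK cell ligands had 14 measured genes, of which 3 rose and none fell, with a median of 0.46. Cd274, which encodes PD-L1, stood at 44.0 and 165 CPM (ratio 1.88, 1.80 to 2.02) at 13.7% and 15.5% of its immune level, and had a UMI in 23.7% of untreated and 59.6% of MSA-2 members after thinning. Nos2, the inducible nitric oxide synthase, went from 12.6 to 129.9 CPM, above its level in the immune barcodes of the MSA-2 library (152%), and from 8.24% to 41.5% of thinned members. Its MSA-2 level was 233 CPM with the Col1a2 and Dcn limit at 1%, and members of at least 25000 UMIs had 6.28 and 115 CPM. Ptges, a prostaglandin E synthase, went from 48.2 to 103 CPM. Ido1, the tryptophan-degrading enzyme that the study targets, had 14 UMIs (0.673 CPM) in untreated and 61 UMIs (3.88 CPM) in MSA-2 members, a ratio of 1.54 (1.67 to 3.48 without the added CPM). It stayed below the filter, in 0.194% and 2.36% of thinned members, and the source of these UMIs was not tested. Tdo2, the liver-type enzyme for the same step, had 0 and 1 UMIs.

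Cholesterol and fatty acid synthesis was the list with the most genes that fell. Of 28 measured genes 12 fell, none rose, 27 had a ratio below 0 and the median was -0.81. Hmgcs1, an early enzyme of the mevalonate pathway, stood at 107 and 42.7 CPM, with a ratio of -1.31 (-1.45 to -1.20). With the Col1a2 and Dcn limit at 1% its ratio was -0.94, short of 2-fold, and the list median -0.62. Further along, Idi1 went from 54.2 to 24.9, Cyp51 from 140.4 to 54.1 and Msmo1 from 109.6 to 42.8 CPM. The desaturases Scd1 and Scd2, which act on fatty acids, went from 55.4 to 24.6 and from 131 to 52.7 CPM, and Insig1, which holds the pathway's regulator in place, from 50.1 to 19.8 CPM. The fall thus took in sterol enzymes and desaturases alike.

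Fasn, the fatty acid synthase of the same list, was at 107 and 112 CPM, Acaca, which makes its substrate, at 62.6 and 60.5 and the sterol regulator Srebf2 at 78.3 and 68.3 CPM. Over single cells the summed list had medians of 1711 and 998 CPM, and 85.8% of MSA-2 members lay below the untreated median. Hmgcs1 had a UMI in 47.5% of untreated and 26.2% of MSA-2 members after thinning. These genes stood above their immune level in both libraries, at a median of 273% and 257% of it.

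**Figure D4:**
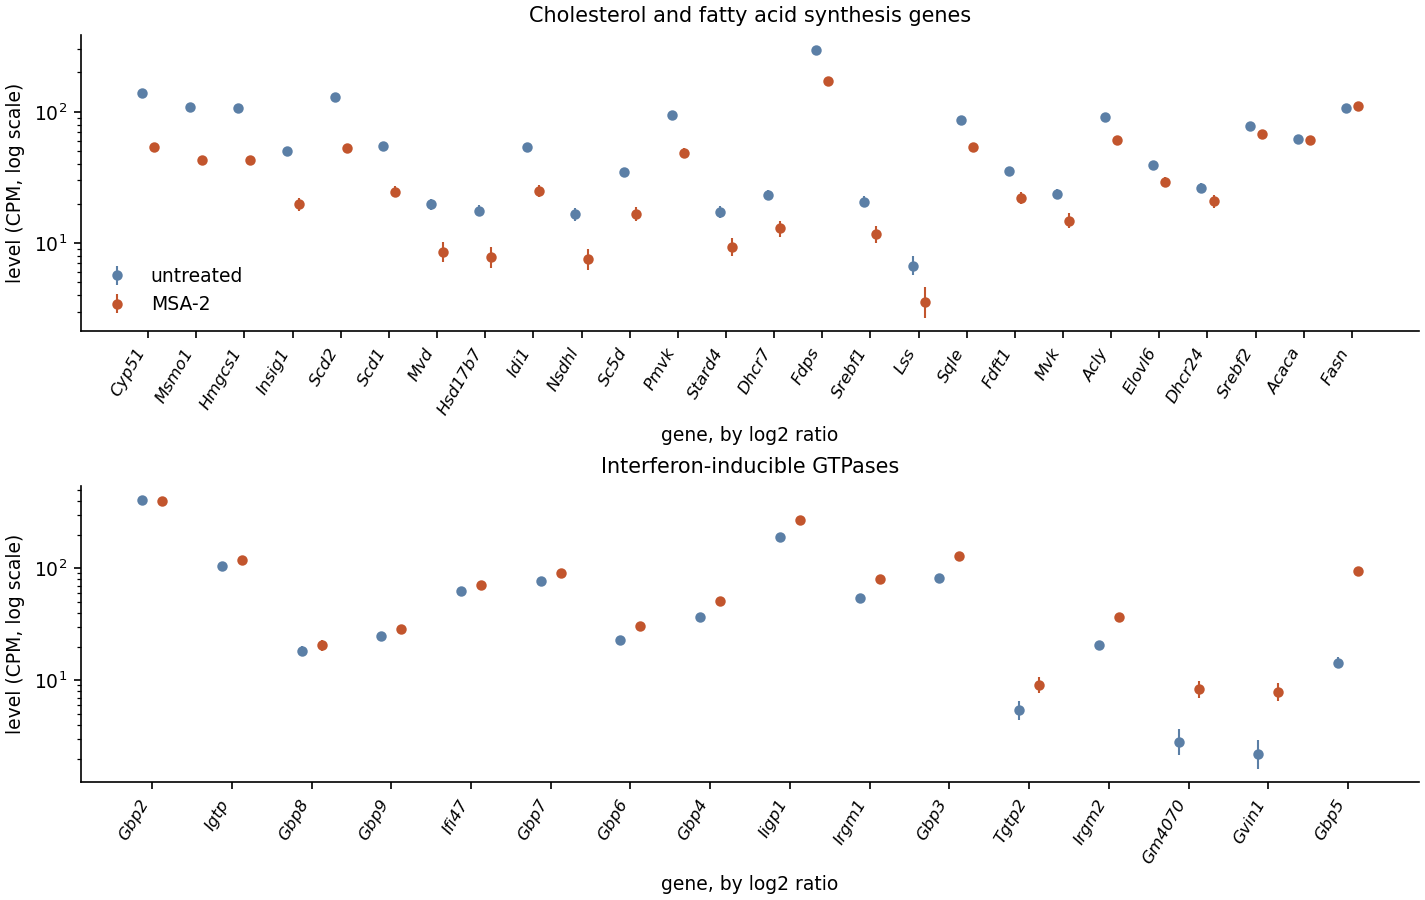
Level in the members (vertical axes, CPM, log scale) of most cholesterol and fatty acid synthesis genes (top) and interferon-inducible GTPases (bottom), ordered by ratio, in the untreated (blue) and MSA-2 (orange) libraries, with exact Poisson 95% intervals of the counts. From Cyp51 to Sc5d the MSA-2 level is below the untreated level by 2-fold or more, while among GTPases Gbp5 stands out (14.3 and 93.6 CPM) and Gbp2 is level.

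Outside the lists, the genes among the 15 lowest ratios at a mean of at least 25 CPM that were not immune genes were Csmd3, Gas1, Nr4a3, Hes1 and Whrn. Csmd3, a large membrane protein gene, went from 59.7 to 11.5 CPM (ratio -2.28), and from 26.6% to 6.95% of thinned members. Its ratio was -1.93 with all 3 state sums at 0 UMIs, -3.04 with the Col1a2 and Dcn limit at 1%, -2.91 in members of 8000 to 15000 UMIs and -1.51 in members of at least 25000 UMIs, and whether it came from cells of a tumor state that the sums missed was not tested. Gas1, a growth arrest gene of the cell surface, went from 67.4 to 19.8 CPM (69.0 and 44.4 CPM with the Col1a2 and Dcn limit at 1%, short of 2-fold), and Hes1, the target of Notch signals, from 134 to 42.7 CPM. The nuclear receptor gene Nr4a3 went from 107 to 32.6 CPM and Whrn, a scaffold gene, from 104 to 34.0 CPM. All 5 stood at or above 49.1% of their immune level, far from the low shares of the immune markers. Btg2, an antiproliferative p53 target, was the 1 gene of the p53 list that fell (587 to 227 CPM).

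Cell cycle genes outside the selection sum lay a little higher in MSA-2 members. Of 25 DNA replication genes none passed 2-fold and the median was 0.20, and of 25 genes of G2 and mitosis none passed 2-fold and the median was 0.42. Mki67, the proliferation marker, had 16.1 and 23.3 CPM, and Ube2c, which drives exit from mitosis, 69.0 and 96.1 CPM. In barcodes above the cycling median without state markers the same lists had medians of -0.27 and -0.16. Because the members were selected on cycling genes, and because a larger part of the MSA-2 tumor-like barcodes lay near the limit (174 within 10% of it, beside 147 untreated ones), these values are given as a description. With the median taken within each library the medians were 0.57 and 1.002. Within 10% of the limit lay 47 untreated and 52 MSA-2 members.

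Other programs stayed near the middle of all genes. Of 31 cell death genes 3 rose, the inflammatory caspase Casp4 (34.8 to 99.9 CPM), the death receptor Fas (13.1 to 33.5) and Tnfsf10, which encodes the ligand TRAIL (6.05 to 15.5), with a median of -0.08. Of 21 p53 targets, CDK inhibitors and D cyclins none rose and 1 fell, with a median of 0.04, and the inhibitor Cdkn1a was at 97.0 and 135 CPM. Of 31 hypoxia and glycolysis genes 1 fell (Egln3, 87.8 to 41.2 CPM), with a median of -0.15. Of 29 genes of the ATF4 and unfolded protein responses 1 rose, the cystine carrier Slc7a11 (40.2 to 93.0 CPM), with a median of 0.06. Medians this near 0 changed sign with the members taken, to 0.10 for cell death in members of 8000 to 15000 UMIs, to 0.08 for hypoxia in members of at least 25000 UMIs, and to -0.10 for p53 targets and -0.09 for ATF4 genes with the Col1a2 and Dcn limit at 1%.

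Immediate-early and heat shock genes had a median of -0.09, or -0.36 without the barcodes of other cell types and 0.03 in members of 15000 to 25000 UMIs. Of 27 genes 1 was past 2-fold, Hspb1, whose ratio of 1.59 was 0.70 without the barcodes of other cell types. Of the 27 genes 11 lay above 0. Jun, the most abundant, stood at 2635 and 2113, Hspa8 at 2004 and 2338 and Fos at 1719 and 1063 CPM. Such genes are known to respond to tissue handling as well as to signals. Mitochondrially encoded genes had a median of 0.28 over 13 genes (0.01 with the Col1a2 and Dcn limit at 1%) and ribosomal protein genes one of 0.16 over 89, with none past 2-fold in either list.

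Of 40 mesenchymal and matrix genes 3 rose, 2 fell and the median was -0.05, or 0.15 with the limit on Col1a2 and Dcn at 1%. Mmp3, a stromelysin, and Loxl2, which crosslinks collagen, went from 1.68 to 10.8 and from 3.27 to 11.005 CPM. The third, Tagln, had 81.3% of its MSA-2 UMIs in 2 members, and its ratio of 1.65 was -0.24 without the barcodes of other cell types. Those that fell were Timp2, an inhibitor of matrix proteases (1009 to 477 CPM), and Tgfbi, which lay under 5% of its immune level. Fn1, fibronectin, stood at 886 and 459 CPM. Col3a1, a collagen gene, fell from 926 to 449.9 CPM, and Col1a1, a further one, lay at 48.3 and 68.3 CPM. The rule's own genes Dcn and Col1a2, which it capped, had 164 and 304 and 17.5 and 41.6 CPM, or 5.28% and 0.535% of the level in MSA-2 fibroblast reference barcodes.

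**Figure D5:**
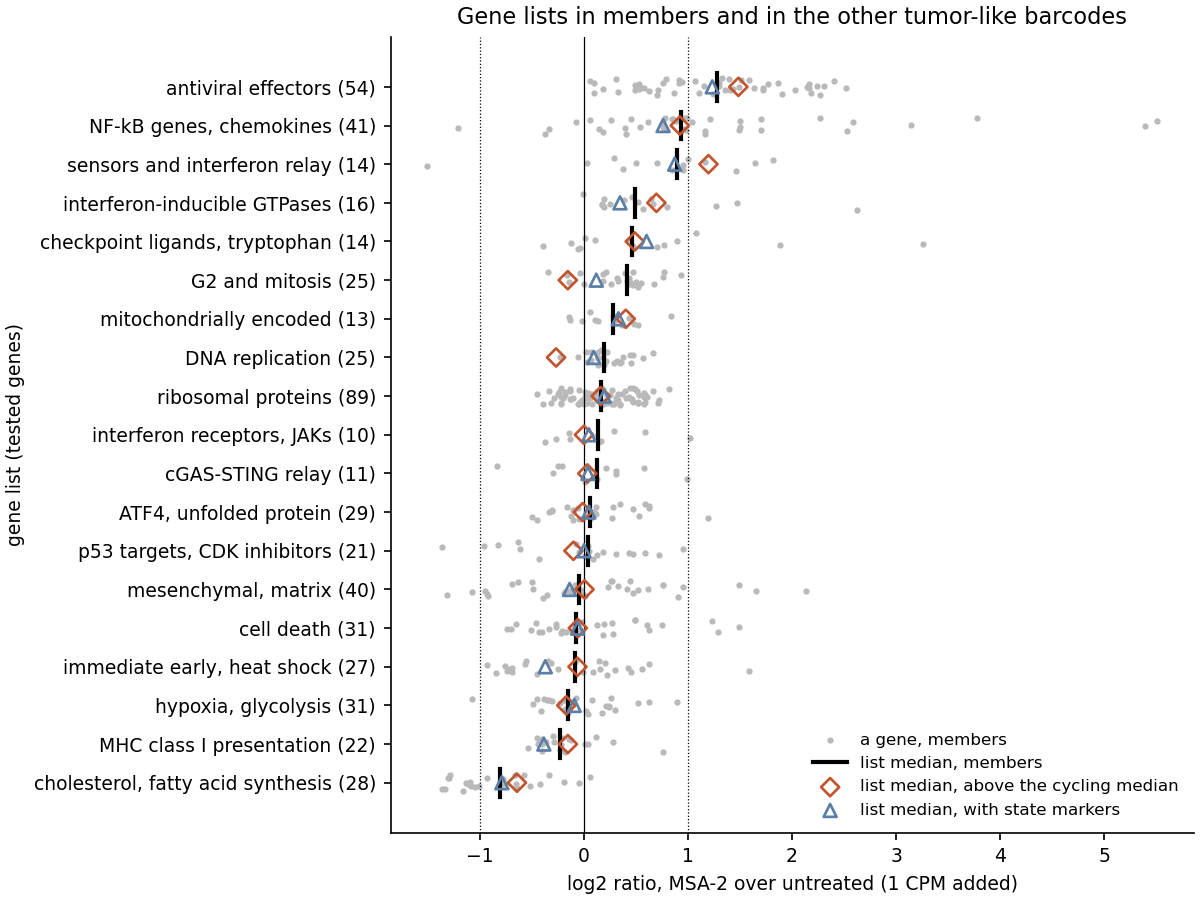
Log2 ratio of MSA-2 over untreated (horizontal axis, 1 CPM added) for each gene of 19 lists in the members (grey points), with the list median in members (black bar), in barcodes above the cycling median without state markers (orange diamonds) and in tumor-like barcodes with state markers (blue triangles), and the number of compared genes in parentheses. Antiviral effectors have medians of 1.28, 1.48 and 1.23 in these 3 groups and cholesterol and fatty acid genes -0.81, -0.64 and -0.79, while DNA replication and mitosis genes are above 0 in members and below 0 above the cycling median.

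The members' ratios were then set beside those of the most similar barcodes, which are tumor-like barcodes above the cycling median without state markers (1088 untreated and 1153 MSA-2) and those with state markers (2666 and 912). These share libraries with the members, so they are not independent of them, and differences between the groups were not tested. Antiviral effectors had medians of 1.28 in members, 1.48 above the cycling median and 1.23 with state markers. GTPases had 0.49, 0.70 and 0.35, MHC class I genes -0.23, -0.15 and -0.39, NF-kB genes 0.94, 0.92 and 0.76, and cholesterol and fatty acid genes -0.81, -0.64 and -0.79. In the barcodes that the Col1a2 and Dcn limit alone kept out, under 1% of the pair, the medians were 0.94 for antiviral effectors, 0.06 for GTPases, -0.35 for MHC class I genes and -0.16 for cholesterol and fatty acid genes. Above the cycling median 265 of the same 9604 genes were 2-fold higher and 80 were 2-fold lower. Of the 254 genes that rose in members, 252 had a positive ratio there and 207 were past 2-fold, and of the 152 that fell, 151 had a negative ratio and 64 were past 2-fold. Most genes past 2-fold in members thus had the same sign above the cycling median.

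Members were also set beside barcodes above the cycling median in the same library. Among 5233 genes at 25 CPM or more, outside the rule and the cell cycle lists and without barcodes of other cell types, 16 were 2-fold lower in members of both libraries. They included the linker histone Hist1h1e, Cdca8, which acts at centromeres, the cytokinesis gene Anln and the condensin genes Smc2 and Smc4. The 2 genes that were 2-fold higher in both were Kdm5b, a histone demethylase (44.4 and 12.5 CPM in untreated members and cycling barcodes, 27.2 and 10.1 CPM in MSA-2), and Hist1h2bc, whose transcript can be polyadenylated (194 and 91.8 CPM, 111 and 52.7 CPM). Behind them came Rgs2, Ptgs2 and Tnc. As the rule ranked barcodes by cycling genes, these values describe the members and support nothing further.

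Members varied widely among themselves. Ranked by variance over mean of thinned counts, the first 4 genes of untreated members were Igkc, Ighg2c, Igha and Jchain, each with over 98% of its thinned UMIs in 2 members. After these came Malat1, the endothelial and adipocyte genes Fabp4 and Ctla2a, and Cxcl10, which was spread over all but 49 of 1032 members. Cfd led in MSA-2 members, with 99.6% of its thinned UMIs in 2 of them, followed by Fabp4, Hp, Ctla2a, Malat1 and Cxcl10. Rsad2, Ccl5, Ccl2 and mt-Atp6 were among the first 20 in both libraries, while Saa3, Gm16685, Dhx40 and Cxcl1 were so in MSA-2 members alone.

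Further genes of the naming rule were read too. Ccrl2, a chemokine-binding receptor, rose from 12.9 to 41.2 CPM at 2.70% of its immune level, with a ratio of 1.60. With the immune profile taken off its ratio was 3.33, but this rests on a low untreated remainder of 0.740 CPM, beside 16.5 CPM in MSA-2 members. Foxo1, Tgfb1 and Prkch, a transcription factor, a cytokine and a kinase, stood at 18.7 and 19.2, 30.2 and 21.0, and 9.42 and 10.7 CPM, none past 2-fold. Without barcodes of other cell types, however, Prkch stood at 5.21 and 1.44 CPM, a ratio of -1.35. Its ratio was also below 0 at -0.58 with at least 12000 UMIs and at -0.43 with the Col1a2 and Dcn limit at 1%. It was further above 0 at 0.96 in members of 8000 to 15000 UMIs and at 0.79 after thinning. Below the filter lay the fatty acid carrier Cd36 (34 and 113 UMIs), the lymphocyte protease gene Gzma (36 and 66), interferon gamma, Ifng (80 and 45), and Ifna2 (1 and 17).

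Marker lists of other cell types are given whole. Neutrophil markers had 28.1 CPM in untreated members and 458 CPM in those of MSA-2 tumors, with 5 of 6 measured genes up, none down and S100a9 the most abundant. Macrophage markers had 782 and 242 CPM, with 6 of 7 down and Apoe the most abundant, and dendritic cell and MHC class II markers had 415 and 22.96 CPM, with 4 of 4 down and Cd74 the most abundant. Ly6c2 monocyte markers had 266 and 374 CPM, with 1 of 4 up and Vcan the most abundant. T cell markers had 26.0 and 5.47 CPM, led by Trbc2, and NK cell markers had 14.7 and 10.6 CPM, led by Nkg7, with no gene of either list past the filter. B and plasma cell markers had 598 and 7.19 CPM, led by Igkc, with 3 of 3 down. The ratio of Igkc was -6.40 with and -0.99 without barcodes of other types, where it stood at 10.5 and 4.79 CPM.

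Fibroblast markers had 2005 and 1593 CPM, with 1 of 9 up (Col1a2, a gene of the rule), 1 down and Col3a1, which fell, the most abundant. Endothelial markers had 92.5 and 151 CPM, with none of 7 past 2-fold and Egfl7 the most abundant, and their median ratio of 0.72 was 0.00 without barcodes of other types. Adipocyte markers had 87.8 and 210 CPM, with 2 of 2 up, and Fabp4, the most abundant, had a ratio of 1.02 that became -1.25 without those barcodes. Pericyte and smooth muscle markers had 32.3 and 28.2 CPM, with 1 of 2 up (Acta2, whose ratio of 1.20 was -0.76 without those barcodes), 1 down and Cspg4 the most abundant. Keratinocyte markers had 15.6 and 10.2 CPM, led by Krt10, with 3 of 6 at 0 UMIs in both libraries. Mast cell, skeletal muscle and red cell markers had 4.90 and 3.18, 5.14 and 3.37, and 0.577 and 0.573 CPM, led by Kit, Mylpf and Alas2, with no gene past the filter. The part of these cells in the results was not tested beyond the values without them.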

How the data were processed

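The deposited matrices hold a UMI count per gene and barcode, which the authors made with Cell Ranger (version 7.0.0 in the submitters' processing notes, 7.0.1 in the matrix header, 7.1.0 in the published methods) on mm10. Barcodes were taken as deposited. No doublet caller was run, and leaving out members above 40000 UMIs gave 253 higher and 159 lower genes. UMIs were summed over the members of each library, scaled to CPM and compared as log2 ratios with 1 CPM added, for genes with a mean of at least 5 CPM. Ratio intervals are exact conditional binomial, shares Clopper-Pearson and sums Poisson. Thinning to 8000 UMIs used seed 1. Named genes are the 15 highest and 15 lowest ratios at a mean of at least 25 CPM outside the rule, genes of the lists, a further list of genes tied to the study and the 10 most abundant genes. Genes of the contrast with cycling barcodes, and the most variable genes, were named after their values were seen. Symbols shared by several features number 78. The members and lists were chosen with earlier results of these data known. The calculation was tested on simulated data. Tools were Python 3.11.15, numpy 2.4.6, scipy 1.17.1, pandas 2.3.3, matplotlib 3.10.9, R 4.3.3 and edgeR 4.0.16. Alternatives changed the members, depth, scaling, added CPM and filter.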

Additional observations from a re-analysis of the deposited data

Results flagged for a closer look

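These values had opposite signs in the members and in tumor-like barcodes above the cycling median without state markers. The differences were not tested, and the cycling share that separates the groups also chose the members. The DNA replication genes had a median log2 ratio of 0.20 in members and -0.27 above the cycling median. For G2 and mitosis genes the medians were 0.42 and -0.16. Tagln, an actin-binding smooth muscle gene, had a ratio of 1.65 in members, -0.24 in members without barcodes of other cell types and -0.85 above the cycling median. Acta2, smooth muscle actin, had 1.20, -0.76 and -1.78. Esm1, an endothelial proteoglycan, had -1.17, -0.49 and 0.64.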

How the results depend on the processing

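The log2 ratio of the member share, MSA-2 over untreated, was 0.32. It was 0.86 (18.4% and 33.4%) with the cycling median taken within each library and 0.65 (10.4% and 16.3%) with state markers at 0 UMIs. The counts of 254 higher and 152 lower genes were 119 and 49 with 10 CPM added, 117 and 71 at a mean of at least 25 CPM, where fewer genes are tested, 491 and 254 with no filter beyond 1 UMI, where more are, and 492 and 257 in members of 8000 to 15000 UMIs. The antiviral effector median of 1.28 was 1.16 after thinning and 1.09 with 10 CPM added. The MHC class I median of -0.23 was -0.14 with the Col1a2 and Dcn limit at 1% and -0.35 in members of 15000 to 25000 UMIs. The GTPase median of 0.49 was 0.35 with 10 CPM added. Except where fewer or more genes were tested, the cause was not tested.

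Single genes were counted over settings for 50 of the named genes, among them those with the highest and lowest ratios. Of these 50 genes 40 were past 2-fold, and each was read in 16 settings. Of the resulting 640 pairs of gene and setting, 632 kept the direction and 621 of those stayed past 2-fold. The other genes of the lists are not in these counts, and the highest and lowest ratios were picked for their size. To take off the immune profile, the CPM of immune barcodes were scaled to the macrophage and MHC class II genes of each library and subtracted, with values below 0 set to 0. Cxcl2, Cd74, C1qc and Lyz2 were so set in both libraries and had a ratio of 0. Of 4 reversed ratios, those of S100a8 (-1.05), S100a9 (-1.98) and G0s2 (-1.36) also rest on an MSA-2 level set to 0, and neither kind is a measured change. The fourth was 0.26 for Apoe, and its cause was not tested. H2-Eb1 and H2-Aa, with an MSA-2 level set to 0, and Acod1, with an untreated level set to 0, were counted as past 2-fold. Their ratios in that setting are not measured changes either. With the Col1a2 and Dcn limit at 1% there were 1068 and 1554 members and 358 higher and 152 lower genes, and 200 of the 254 and 88 of the 152 were among them. TMM scaling moved the median of all genes from -0.03 to -0.07. That limit, the 3 depth ranges, the removal of other cell types and of the immune profile, and the 5% level were chosen after seeing the data. No paired analysis was possible because each condition is 1 pooled library. Library, pool and treatment cannot be told apart, and the intervals leave out the spread between tumors. Low counts limit genes such as Ido1 and the interferon ligands.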
